A study of Mus musculus with 12 samples.

Results

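The adenylyl cyclases are the enzymes that make cAMP from ATP, and 8 of their genes (Adcy1, Adcy2, Adcy3, Adcy5, Adcy6, Adcy7, Adcy8 and Adcy9) were followed here, of 55573 genes in the count table. They were taken by symbol, through their mouse Ensembl identifiers, and not by any measured value. All 8 were among the 16761 genes that passed the filter on low counts, with 144 to 2168 counts per library. The 2 remaining genes of the family were near 0: Adcy4 had 21 counts and Adcy10, which encodes the soluble bicarbonate-sensitive enzyme, had 10 counts summed over 12 libraries, and neither was tested.

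RNA was sequenced from astrocyte-enriched cultures of the forebrain of C57BL6/J mouse pups taken on postnatal day 0 to 2. The cells were shaken and replated at day 7 in vitro to remove other glia. They then carried for 5 days either the empty lentiviral vector pCIG3 (pCMV-IRES-GFP, called control virus here) or pCIG3-ACREB, which expresses ACREB, a dominant-negative protein that blocks CREB, a transcription factor, from binding DNA. Vasoactive intestinal peptide (VIP, 0.5 µM) or PBS was applied for 30 min, and lysis followed after 90 min of recovery. Every group was thus transduced, and the 4 groups (control virus with PBS, control virus with VIP, ACREB with PBS, ACREB with VIP) had 3 libraries each; the labels number them 1 to 3. Nothing in the labels says whether the numbers mark separate cultures, litters or days, so the p-values reflect just the spread among these libraries, which may be technical.

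Membrane adenylyl cyclases are switched on by the G protein subunit Gαs, which receptors such as those for VIP and noradrenaline release. The isoforms differ in what else controls them. Adcy1, Adcy3 and Adcy8 encode enzymes regulated by calcium and calmodulin, Adcy5 and Adcy6 encode enzymes that calcium inhibits, Adcy2 and Adcy7 belong to the class that Gβγ subunits enhance, and Adcy9 encodes the isoform that responds poorly to forskolin. In astrocytes, cAMP made after VIP or noradrenaline acts through protein kinase A and CREB, and it is known for driving glycogen breakdown and later resynthesis.

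Total counts were 16571398 to 20529238 per library. Library 2 of control virus with PBS stood apart: a trend over GC content and gene length accounted for 42.6% of its departure from the other libraries, against 0.502% to 18.6% in the other 11. Astrocyte markers were abundant in every library (10 of 10 genes detected, summed level 5482 to 6626 CPM, TMM-scaled counts per 1 M). Markers of other cells were present too, with summed CPM of 3274 to 5718 for 9 fibroblast and mural cell genes, 926 to 2392 for 11 microglia genes, 1155 to 1860 for 10 oligodendrocyte lineage genes and 306 to 493 for 12 neuronal genes. Acta2 (mean 2149 CPM) and Tagln (1820 CPM) made up most of the fibroblast and mural sum. Every other gene of that list had a mean of 56.7 CPM (Col1a1) or less. Map2 (302 CPM) made up most of the neuronal sum. Endothelial genes summed to 21.7 to 57.7 CPM, with Cldn5 at 0 counts. In such bulk RNA, fewer cells of a type and less RNA per cell cannot be told apart.

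The promoters are shown first because the design asks which transcripts depend on CREB, which binds the cAMP response element TGACGTCA or its half-site TGACG. RefSeq's promoter table (GRCm38.p6) held 6 of the 8 genes, with 9 windows of 300 bases that run from 250 bases before to 50 after a transcript start; Adcy6 and Adcy8 are named only. Both strands were searched. The 8-base element was in 0 of the 9 windows, and 1.79% of the 32851 windows in the whole table held it. The half-site, counted also where it forms part of the longer element, was in 2 of the 9 windows, and 20.8% of all windows held it. The GC box CCGCCC was in 6 of the 9 windows (those of Adcy1, Adcy2, Adcy5 and Adcy9, the first of 2 for Adcy3 and the last of 3 for Adcy7), and 35.7% of all windows held it. The windows of 4 genes are printed 5′ to 3′ on the gene's strand, with half-sites of either strand in capitals (CGTCA is the half-site read on the opposite strand). Adcy1 is shown as the gene with the most counts, Adcy7 and Adcy9 as the only windows of these 9 with a half-site, and Nr4a2, a CREB target used below to check the VIP response, for comparison.
Adcy1, chr11:7063183-7063482, plus strand: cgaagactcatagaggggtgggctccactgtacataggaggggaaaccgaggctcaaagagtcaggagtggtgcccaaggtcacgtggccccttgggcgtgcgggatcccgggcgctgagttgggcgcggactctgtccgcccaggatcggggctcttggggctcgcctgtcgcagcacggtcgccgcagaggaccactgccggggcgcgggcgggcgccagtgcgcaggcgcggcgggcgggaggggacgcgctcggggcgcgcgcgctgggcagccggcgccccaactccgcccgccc
Adcy7, chr8:88282742-88283041, plus strand: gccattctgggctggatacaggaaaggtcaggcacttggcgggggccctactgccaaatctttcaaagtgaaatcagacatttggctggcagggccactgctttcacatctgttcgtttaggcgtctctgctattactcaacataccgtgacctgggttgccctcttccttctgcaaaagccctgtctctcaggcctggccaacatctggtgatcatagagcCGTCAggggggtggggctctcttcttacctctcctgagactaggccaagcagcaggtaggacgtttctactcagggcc
Adcy9, chr16:4420449-4420748, minus strand: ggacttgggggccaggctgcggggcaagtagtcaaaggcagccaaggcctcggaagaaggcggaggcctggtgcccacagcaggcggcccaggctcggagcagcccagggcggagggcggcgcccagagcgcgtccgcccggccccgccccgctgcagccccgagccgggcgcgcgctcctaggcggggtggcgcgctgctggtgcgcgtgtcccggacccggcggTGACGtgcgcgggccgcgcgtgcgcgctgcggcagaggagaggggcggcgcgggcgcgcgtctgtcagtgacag
Nr4a2, chr2:57123954-57124253, minus strand: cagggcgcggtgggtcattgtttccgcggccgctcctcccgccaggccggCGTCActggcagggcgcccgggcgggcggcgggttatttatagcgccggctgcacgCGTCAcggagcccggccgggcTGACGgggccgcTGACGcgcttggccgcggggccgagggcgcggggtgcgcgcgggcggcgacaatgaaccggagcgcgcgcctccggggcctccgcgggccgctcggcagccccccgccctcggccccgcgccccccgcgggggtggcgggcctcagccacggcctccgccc

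The Adcy9 half-site began 24 bases upstream of the start and the Adcy7 half-site 28 bases upstream, on the opposite strand. The Adcy7 window belongs to the first of 3 RefSeq starts of that gene. The Nr4a2 window held 4 half-sites, beginning 200, 144, 123 and 111 bases upstream. Like the cyclase windows, the Nr4a2 window lacked the longer element TGACGTCA, so that element does not set them apart. The Adcy1 window held no half-site, but 5 GC boxes and 74.0% G and C. Among the 9 windows the G and C content ran from 54.7% at the first Adcy7 start to 79.0% at Adcy5. A match is a description of the letters, and no binding was measured.

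Levels of different genes were compared per length, as TMM-scaled counts per kb of merged exons and 1 M counts (RPKM). Adcy6 had the highest mean level over the 12 libraries, 9.23 ± 0.966 RPKM (SD), and Adcy2 followed with 8.44 ± 0.572. Adcy1 came next with 7.11 ± 1.73, then Adcy3 with 5.21 ± 0.510 and Adcy7 with 4.79 ± 1.24. The 3 lowest were Adcy8 with 2.89 ± 0.328, Adcy9 with 2.02 ± 0.329 and Adcy5 with 1.71 ± 0.403 RPKM. The calcium-inhibited pair therefore held both the highest and the lowest place in the family. Against all tested genes these are middle levels: 67.8% of them had a lower mean RPKM than Adcy6 and 29.7% a lower one than Adcy5.

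Only some neighbours in this order were apart. Adcy6 exceeded Adcy2 in 8 of 12 libraries, Adcy2 exceeded Adcy1 in 10 and Adcy1 exceeded Adcy3 in 9. Adcy3 exceeded Adcy7 in 6 of 12 libraries. Adcy7 exceeded Adcy8 in 11, Adcy8 exceeded Adcy9 in 12 and Adcy9 exceeded Adcy5 in 9 of 12 libraries. These counts depend on the length used: with the longest coding transcript of each gene, Adcy6 exceeded Adcy2 in 12 of 12 libraries, Adcy3 exceeded Adcy7 in 10, and Adcy2 exceeded Adcy1 and Adcy1 exceeded Adcy3 in 8 each. Within control virus with PBS, the ranges of 2 neighbouring pairs did not overlap, Adcy6 over Adcy2 and Adcy8 over Adcy9. The Adcy3 value is uncertain, because 1380 bases (22.1%) of its exons overlap Cenpo on the opposite strand (mean 11.8 CPM) and the strand setting of the counting is not given in the sources used here. The overlaps of Adcy6 with Gm29331 (605 bases, 8.92%) and of Adcy2 with Gm35161 (189 bases, 4.49%) involve genes with a mean of 0.195 and 0.706 CPM.

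**Figure D1:**
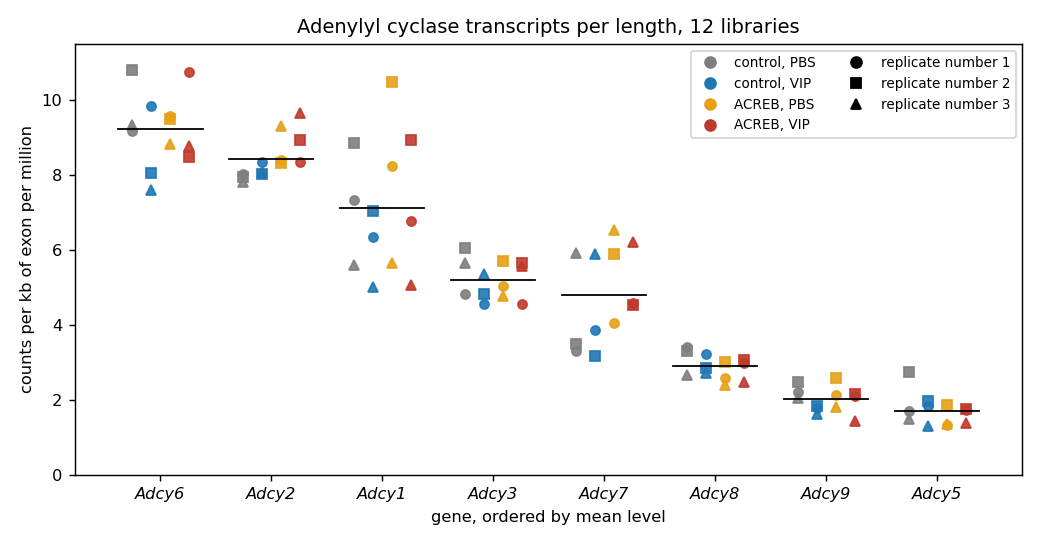
Level per length of the 8 adenylyl cyclase genes (y axis, RPKM) in each of the 12 libraries, with genes on the x axis in order of their mean. Colours give the group, marker shapes the replicate number and black lines the mean over 12 libraries. Adcy6, Adcy2 and Adcy1 overlap at the top, and Adcy8, Adcy9 and Adcy5 stay below the mean of each of the other 5, while Adcy1 and Adcy7 spread most.

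As shares of the summed RPKM of the 8 genes, Adcy6 contributed 22.3%, Adcy2 20.5%, Adcy1 17.1%, Adcy3 12.6% and Adcy7 11.6%. Adcy8 (7.00%), Adcy9 (4.85%) and Adcy5 (4.11%) made up the rest. Grouped by regulation, no class held most of the transcripts. The summed level was 42.1 ± 3.14 RPKM (SD, n = 3) in control virus with PBS, 38.4 ± 1.21 with VIP, 43.1 ± 3.68 in ACREB with PBS and 42.0 ± 1.50 in ACREB with VIP. In control virus, the 3 PBS libraries (40.0, 45.7 and 40.5) lay above the 3 VIP libraries (39.8, 37.8 and 37.6). The nearest of them were close, 39.98 with PBS and 39.79 with VIP. The value of 45.7 was from library 2 of control virus with PBS, the library that stood apart. In ACREB the ranges overlapped, and these sums were not tested. By raw abundance, not corrected for length, Adcy1 came first with a mean of 89.0 CPM, since its merged exons span 12522 bases.

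The partners of the cyclases set the scale. Gnas, which encodes Gαs, had a mean of 114 RPKM, and Gnai2, which encodes the most abundant inhibitory subunit here, had 230 RPKM. Of the receptor genes for VIP, Adcyap1r1 (the PACAP receptor, which also binds VIP weakly) had 12.7 RPKM and Vipr2 0.386, and Vipr1 had 69 counts in all and was not tested. The receptor for noradrenaline Adrb1 had 12.8 RPKM.

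The test across all genes was the quasi-likelihood F test of edgeR, adjusted after Benjamini and Hochberg across 16761 genes and a threshold of 0.05. None of the 8 genes passed it in any of 7 contrasts. For VIP in control virus 0 of 8 passed, against 0.489% of all genes. For VIP in ACREB it was 0 of 8 against 0.0119%, for ACREB with PBS 0 of 8 against 0.0358%, and in VIP-treated cells 0 of 8 against 0.0537%. The interaction, which subtracts the VIP response of control virus from that of ACREB, gave 0 of 8 against 0%, VIP averaged over both viruses 0 of 8 against 0.728%, and ACREB averaged over both treatments 0 of 8 against 0.674%. With shares this small, 0 of 8 is near the background. None of the 8 had an unadjusted p under 0.05 in any of the 7 contrasts, and DESeq2 also called none.

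The intervals say how large a change could have been missed. In the 4 simple contrasts, the 95% intervals of the 8 genes lay between -0.92 and 0.98 on the log2 scale, so none reached a log2 change of 1 in either direction. Each interval holds for 1 gene and contrast taken singly, and for the spread among these libraries. The narrowest were those of Adcy2, for example -0.17 to 0.25 for VIP in control virus. The widest were those of Adcy7, -0.24 to 0.98 for ACREB with PBS. Intervals of the interaction were wider and reached 1.08 for Adcy5.

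VIP did act in these cultures, as genes outside the family show. Nr4a2, an immediate-early transcription factor gene, rose 11.6-fold in control virus (log2 3.53, SE 0.20, adjusted p = 1.04e-05, edgeR). Pde4d, a cAMP phosphodiesterase gene, rose by 1.67 (SE 0.26, adjusted p = 0.0153) and Ppp1r3c, a glycogen-targeting phosphatase subunit gene, by 1.34 (SE 0.18, adjusted p = 0.00566, edgeR) on the same scale. The median log2 change over all tested genes in control virus was -0.02. In ACREB, VIP raised Nr4a2 4.98-fold (log2 2.32, SE 0.20, adjusted p = 0.00104, edgeR). Pde4d (log2 1.01) and Ppp1r3c (0.78) were not called there. The Nr4a2 responses of the viruses differed by -1.21 (interaction, SE 0.27), which was not called. Between viruses, Nr4a2 was called lower in ACREB with VIP (log2 -1.46, SE 0.18, adjusted p = 0.0146, edgeR) but not with PBS (-0.25). Pde4d (-0.64) and Ppp1r3c (-0.78) were not called between viruses with VIP.

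Adcy1, a calcium and calmodulin-stimulated isoform best known from neurons (ENSMUSG00000020431, chr11:7063489-7178506), had 91.9, 111 and 70.1 CPM in libraries 1, 2 and 3 of control virus with PBS. With VIP it had 79.5, 88.1 and 62.8 CPM. In ACREB it had 103, 131 and 70.8 CPM with PBS and 84.7, 112 and 63.4 CPM with VIP. Within each group library 2 was highest and library 3 lowest, and all pairs of groups overlapped. Compared within a number, VIP was lower than PBS in 6 of 6 pairs and ACREB was higher than control virus in 6 of 6. The log2 change with VIP was -0.24 in control virus (SE 0.26, 95% interval -0.80 to 0.31, adjusted p = 0.783) and -0.23 in ACREB (SE 0.26, adjusted p = 1, edgeR). Single libraries set the first value: it was -0.08 without library 2 of control virus with PBS, -0.09 without library 3 of control virus with VIP and -0.40 without library 3 of control virus with PBS. The second was -0.01 without library 2 of ACREB with PBS and -0.46 without library 2 of ACREB with VIP.

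With the replicate number as a block in the edgeR fit, the VIP change of Adcy1 averaged over both viruses was -0.23 (SE 0.07, adjusted p = 0.129; unadjusted 0.00508). With offsets for each library's GC and length trend added to the block, it was -0.26 (95% interval -0.39 to -0.14, adjusted p = 0.0198, edgeR), a call, when 4.24% of all genes were called in that fit. This call was lost on leaving out library 1 of any group, library 2 of ACREB with PBS or library 3 of ACREB with VIP, that is in 6 of 12 cases, with adjusted p from 0.00677 to 0.0900 and a log2 change from -0.31 to -0.22. The fitted level with VIP was 0.833 of that with PBS.

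Adcy3, known as the cyclase of olfactory neurons and of primary cilia (ENSMUSG00000020654, chr12:4133103-4213525), had 30.2, 37.8 and 35.2 CPM in control virus with PBS and 28.4, 30.1 and 33.4 with VIP. It had 31.4, 35.6 and 29.8 CPM in ACREB with PBS and 28.4, 35.4 and 34.8 with VIP. All groups overlapped. The log2 change with VIP was -0.17 in control virus (SE 0.13, adjusted p = 0.782) and 0.03 in ACREB (SE 0.13, adjusted p = 1, edgeR).

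Adcy8, the other isoform that calcium and calmodulin stimulate (ENSMUSG00000022376, chr15:64697084-64922296), had 27.7, 27.0 and 21.8 CPM in control virus with PBS and 26.2, 23.3 and 22.2 with VIP. It had 21.2, 24.4 and 19.6 CPM in ACREB with PBS and 24.3, 25.0 and 20.1 with VIP. Library 3 was lowest in each group, and the groups overlapped. ACREB was lower than control virus in 5 of 6 numbered pairs, by -0.23 with PBS (SE 0.14, adjusted p = 0.956) and -0.05 with VIP (SE 0.14, adjusted p = 1.00, edgeR).

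Adcy6, the most abundant isoform per length (ENSMUSG00000022994, chr15:98589973-98610076), had 62.2, 73.3 and 63.3 CPM in control virus with PBS and 66.8, 54.7 and 51.6 with VIP. It had 65.0, 64.4 and 59.9 CPM in ACREB with PBS and 72.9, 57.6 and 59.6 with VIP. The groups overlapped, and the direction with VIP differed between numbers. Library 1 was higher with VIP in both viruses, and libraries 2 and 3 were lower. The log2 change was -0.20 in control virus (SE 0.13, adjusted p = 0.782) and 0.01 in ACREB (SE 0.13, adjusted p = 1, edgeR).

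Adcy5, the major cyclase of striatal neurons (ENSMUSG00000022840, chr16:35154877-35305738), had 12.3, 19.7 and 10.7 CPM in control virus with PBS and 13.1, 14.2 and 9.29 with VIP. It had 9.54, 13.4 and 9.72 CPM in ACREB with PBS and 12.4, 12.7 and 9.88 with VIP. The groups overlapped, and the highest value was in library 2 of control virus with PBS, the library that stood apart. The log2 change of ACREB with PBS, -0.39 (SE 0.25, adjusted p = 0.956, edgeR), was -0.08 without that library, and the VIP change in control virus turned from -0.22 to 0.08.

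Adcy2, a class that Gβγ enhances (ENSMUSG00000021536, chr13:68620043-68999541), varied least. It had 33.8, 33.5 and 33.0 CPM in control virus with PBS and 35.1, 33.8 and 34.1 with VIP. It had 35.3, 35.1 and 39.2 CPM in ACREB with PBS and 35.2, 37.7 and 40.7 with VIP. The ACREB libraries lay above the control virus libraries within each treatment, and ACREB was higher in 6 of 6 numbered pairs. Over both treatments the ranges just met, since the highest control virus library had 35.15 CPM and the lowest ACREB library 35.08; the 6 libraries of each virus were apart in 0 of 8 genes, against 1.95% of all genes. The log2 change was small, 0.13 with PBS (SE 0.10, adjusted p = 0.956) and 0.14 with VIP (SE 0.10, adjusted p = 1.00, edgeR).

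Adcy7, of the same regulatory class and known for its expression in blood-lineage cells (ENSMUSG00000031659, chr8:88272403-88329962), had 22.2, 23.5 and 39.9 CPM in control virus with PBS and 26.0, 21.4 and 39.6 with VIP. It had 27.2, 39.7 and 43.9 CPM in ACREB with PBS and 30.9, 30.4 and 41.8 with VIP. Library 3 was highest in every group, and ACREB was higher than control virus in 6 of 6 numbered pairs. The log2 change of ACREB was 0.37 with PBS (SE 0.28, 95% interval -0.24 to 0.98, adjusted p = 0.956) and 0.25 with VIP (SE 0.28, adjusted p = 1.00, edgeR). The value with PBS was 0.22 without library 1 and 0.69 without library 3 of control virus with PBS, and the value with VIP was 0.07 without library 2 and 0.54 without library 3 of control virus with VIP. With VIP it changed by 0.02 in control virus (SE 0.28, adjusted p = 0.980, edgeR).

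Averaged over both treatments, the ACREB change of Adcy7 was 0.31 (SE 0.20, adjusted p = 0.723), and 0.34 with the replicate block (SE 0.11, adjusted p = 0.122, edgeR). With the block and offsets for GC and length it was 0.35 (95% interval 0.15 to 0.56, adjusted p = 0.0357, edgeR), a call, when 9.81% of all genes were called. Leaving out 1 library ended this call in 8 of 12 cases, with adjusted p from 0.0242 to 0.106; it held without library 3 of any group except control virus with VIP, and without library 1 of ACREB with PBS.

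Microglia markers moved with Adcy7. The summed CPM of the 11 microglia genes was 962, 1289 and 1834 in control virus with PBS, 926, 953 and 1952 with VIP, 1233, 1807 and 2289 in ACREB with PBS, and 1177, 1667 and 2392 in ACREB with VIP. Library 3 was again highest in every group, and ACREB exceeded control virus in 6 of 6 numbered pairs. The sum of the endothelial genes, at 21.7 to 57.7 CPM, showed both traits as well. Among all tested genes, 16.2% had the same direction with ACREB in all 6 numbered pairs. All 11 markers were detected in every library. For ACREB averaged over treatments, 0 of 11 were called without the block and 7 of 11 were called higher with it (edgeR; 3.45% of all genes were called with the block). Adcy7 CPM per 1000 CPM of microglia markers ranged from 17.5 to 28.1. The part of microglia in the Adcy7 values was not tested.

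**Figure D2:**
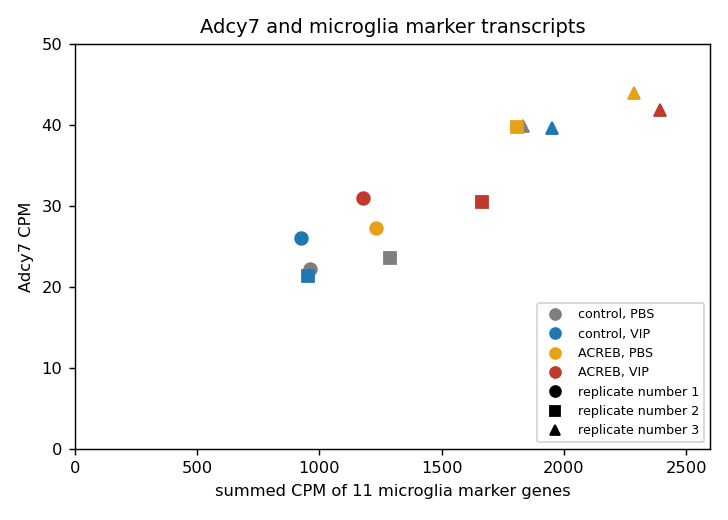
CPM of Adcy7 (y axis) against the summed CPM of 11 microglia marker genes (x axis) in the 12 libraries, with colours for the group and shapes for the replicate number. The 4 libraries numbered 3 lie at the upper right, at 1834 to 2392 marker CPM and 39.6 to 43.9 Adcy7 CPM. Library 2 of ACREB with PBS lies beside them, at 1807 marker CPM and 39.7 Adcy7 CPM.

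Adcy9, which encodes the widely expressed isoform with little response to forskolin (ENSMUSG00000005580, chr16:4287529-4420498), had 11.4, 12.8 and 10.7 CPM in control virus with PBS and 9.31, 9.59 and 8.50 with VIP. It had 11.02, 13.4 and 9.43 CPM in ACREB with PBS and 10.9, 11.2 and 7.45 with VIP. In control virus every VIP library was below every PBS library, and over both viruses VIP was lower in 6 of 6 numbered pairs. The log2 change with VIP was -0.35 in control virus (SE 0.18, 95% interval -0.75 to 0.05, adjusted p = 0.782) and -0.19 in ACREB (SE 0.18, adjusted p = 1, edgeR). With the block the control virus value was -0.35 (SE 0.13, adjusted p = 0.282; unadjusted 0.0196). The Adcy9 window printed above is 1 of the 2 of 9 that hold a half-site, against 20.8% of all windows. A link between that half-site and the VIP values was not tested.

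**Figure D3:**
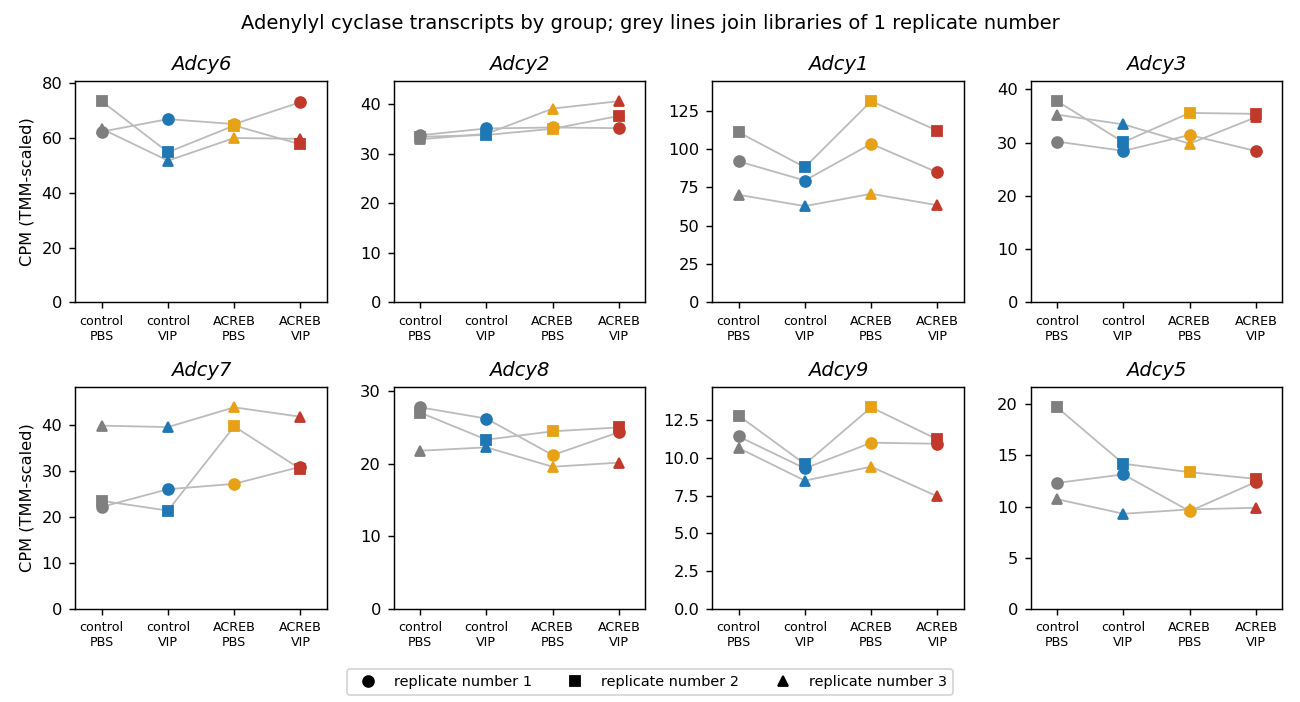
CPM of each adenylyl cyclase gene (y axis, from 0, with a scale for each gene) in the 4 groups (x axis), with grey lines joining the libraries of 1 replicate number and marker shapes giving that number. For Adcy1 the lines run in parallel, with number 2 on top (88.1 to 131) and number 3 lowest (62.8 to 70.8), and for Adcy7 number 3 is on top (39.6 to 43.9).

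Counted over the family, the ranges of the PBS and VIP libraries did not overlap for 2 of 8 genes in control virus (Adcy2 higher and Adcy9 lower), against 9.80% of all genes, and for 0 of 8 in ACREB, against 6.72%. For ACREB against control virus it was 1 of 8 with PBS, against 8.78%, and 1 of 8 with VIP, against 14%, and the gene was Adcy2 in both. A change in the same direction in all 6 numbered pairs was found with VIP in 2 of 8 genes (Adcy1 and Adcy9, both lower), against 8.36% of all genes. With ACREB it was found in 3 of 8 (Adcy1, Adcy2 and Adcy7, all higher), against 16.2%. These contrasts share libraries, and each count is of 8 genes only.

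Median log2 changes of the 8 genes were -0.18 for VIP in control virus, 0.02 for VIP in ACREB, -0.06 for ACREB with PBS and 0.12 with VIP. The same medians over all genes were -0.02, 0.00201, 0.00753 and 0.00204. In control virus 2 of 8 genes had a higher fitted value with VIP, against 46.8% of all genes. Without library 2 of control virus with PBS, the VIP changes in control virus lay between -0.28 (Adcy9) and 0.08 (Adcy5), and those of ACREB with PBS between -0.19 (Adcy8) and 0.33 (Adcy1).

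**Figure D4:**
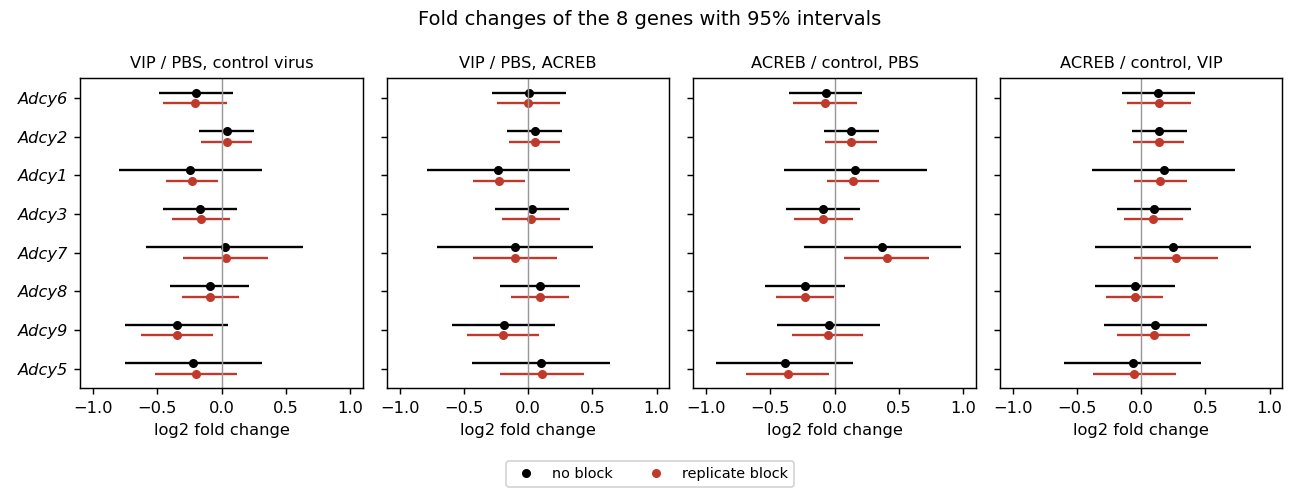
Log2 fold changes (x axis) of the 8 genes (y axis, in order of level) for VIP against PBS in each virus and for ACREB against control virus in each treatment, with 95% intervals as bars. Black points are from edgeR without and red points with the replicate number as a block; no gene passed the threshold in either fit, and the black intervals all lie between -0.92 and 0.98.

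With the replicate block, none of the 8 genes passed in any of the 7 contrasts either. The shares of all genes called were then 1.63% and 0.0776% for VIP in control virus and in ACREB, 0.221% and 0.364% for ACREB with PBS and with VIP, 0% for the interaction, and 2.25% and 3.45% for VIP and ACREB averaged. The block narrowed the intervals of Adcy1 most: the SE of its VIP change in control virus fell from 0.26 to 0.09 in edgeR.

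Libraries of different replicate number differed in several of these genes. An edgeR F test of the number, added after the values had been seen, called 3 of 8 genes, against 15.5% of all genes. It tests any difference among the 3 numbers, so each adjusted p below belongs to that test and not to the log2 change printed with it. Adcy1 was 89.9 ± 10.3 CPM (SD, n = 4) in the libraries numbered 1, 110.5 ± 17.6 in those numbered 2 and 66.8 ± 4.27 in those numbered 3 (log2 number 3 over 2 -0.72; adjusted p of the F test 0.00106, edgeR). Adcy7 was 26.6 ± 3.61, 28.8 ± 8.27 and 41.3 ± 1.99 CPM (log2 number 3 over 1 0.64; adjusted p of the F test 0.0128, edgeR). Adcy5 was 11.9 ± 1.58, 15.0 ± 3.21 and 9.90 ± 0.599 CPM (log2 number 3 over 2 -0.58; adjusted p of the F test 0.0281, edgeR).

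Adcy1 and Adcy5 were thus highest in number 2 and lowest in number 3, while Adcy7 was highest in number 3. Leaving out each library in turn gave 2 to 5 calls. The Adcy5 call was lost (adjusted p 0.0520 to 0.0992, edgeR) without library 3 of control virus with PBS, library 3 of control virus with VIP, library 2 of ACREB with PBS, or library 1 or 3 of ACREB with VIP. Without library 2 of control virus with VIP, Adcy8 (adjusted p = 0.0362) and Adcy9 (adjusted p = 0.0461, edgeR) were called too. With GC and length offsets Adcy6 and Adcy8 joined the 3, when 28.4% of all genes were called.

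Of the variance of log2(CPM + 2) over the 12 libraries, the number accounted for 79.0% in Adcy1, 62.4% in Adcy5, 61.9% in Adcy7, 55.2% in Adcy8, 49.7% in Adcy3, 47.5% in Adcy9, 28.3% in Adcy6 and 12% in Adcy2. The median was 52.5% for the 8 genes and 34.1% for all tested genes. The group accounted for a median of 24.1% in the 8 genes and 24.0% in all genes, and it exceeded the number only in Adcy2, with 59.7%. A factor with no effect also takes a share here, and a larger one with more levels. The group has 4 levels and the number 3, so a group share near 24.0% is by itself no sign of an effect. Cell type markers also differed between numbers, against 15.5% of all genes: the F test called 11 of 11 microglia genes, 7 of 9 of fibroblasts and mural cells, 6 of 10 of astrocytes, 6 of 10 of the oligodendrocyte lineage, 3 of 4 tested of ependyma, 2 of 2 tested of endothelium and 2 of 10 tested of neurons. The fibroblast and mural sum was 3517 ± 181 CPM (SD, n = 4) in number 1, 5037 ± 746 in number 2 and 3844 ± 139 in number 3. Most of this sum was Acta2 and Tagln, so it mainly follows those genes and not the list as a whole. The part of the cell mixture in the differences of Adcy1 and Adcy5 between numbers was not tested.

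**Figure D5:**
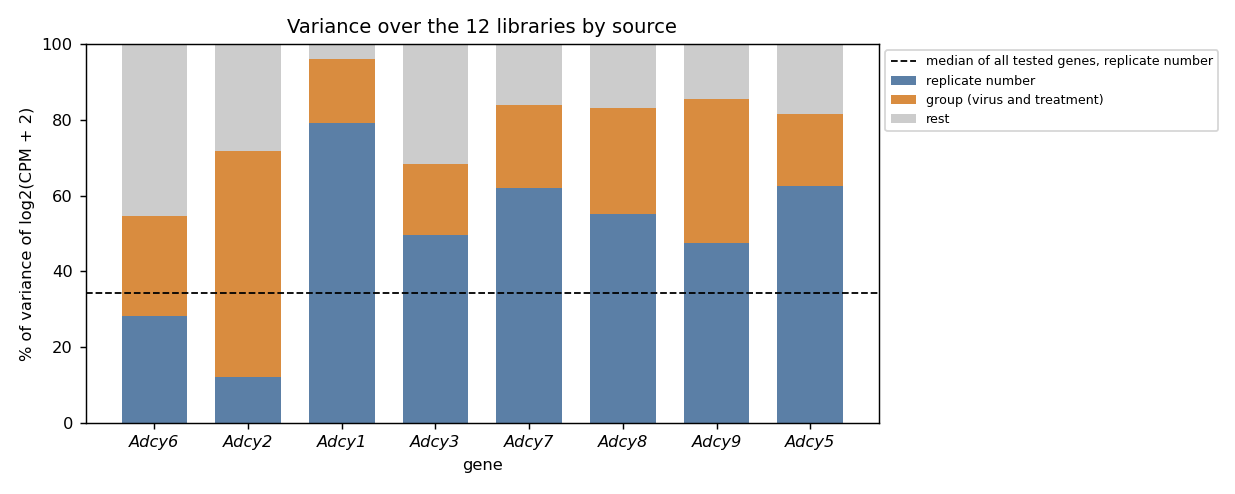
Share of the variance of log2(CPM + 2) over the 12 libraries (y axis, percent) that goes with the replicate number, the group and neither, for each adenylyl cyclase gene (x axis). The dashed line is the median share of the replicate number over all tested genes, 34.1%; 6 of the 8 genes lie above it and Adcy6 (28.3%) and Adcy2 (12%) below.

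The genes most alike in pattern were taken as the 2 with the highest Pearson r of log2(CPM + 2) over the 12 libraries among 11448 genes with a mean of at least 5 CPM. Being the highest of many, and with libraries that share a number, these values only describe the pattern. For Adcy1 Rras2 came first (r = 0.98), for Adcy5 they were Loxl3 (0.97) and G6pdx (0.95), and for Adcy7 Ccdc88b (0.97) and Rgs10 (0.96). These 5 kept r of at least 0.91 after each library's GC and length trend was taken out. For Adcy8 they were Ptcd2 (0.90, and 0.88 without the trend) and Adamts4 (0.88 and 0.68), and for Adcy9 Sorbs3 (0.91 and 0.88) and Mtus2 (0.90 and 0.71). Other likenesses changed more with that trend: Asb7 with Adcy2 went from 0.88 to -0.49, Nono with Adcy3 from 0.94 to 0.53 and Sugp2 with Adcy6 from 0.92 to 0.38. The other gene of the 2 kept its likeness better for Adcy2 (N4bp2os, 0.88 and 0.89), Adcy3 (Snx18, 0.94 and 0.85) and Adcy6 (Nuak2, 0.88 and 0.88).

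The rest of the cAMP pathway was described from lists of genes that act before and after the cyclases. For VIP in control virus, edgeR called 0 of 9 G protein α subunit genes, 0 of 12 β and γ subunit genes, 0 of 15 tested Gs-coupled receptor genes and 0 of 24 genes of cyclase partners and regulators. Among 16 tested cAMP effector genes 1 was called, Crem, a CREB-family transcription factor gene (log2 1.23, SE 0.23, adjusted p = 0.0403). Among 16 genes that remove cAMP 2 were called, both phosphodiesterases: Pde10a rose by 2.16 (SE 0.19, adjusted p = 4.17e-04) and Pde4d by the value given above. Median log2 changes were 0.31 for the removal genes, 0.11 for the effectors, -0.07 for the α subunits and -0.34 for the receptors. Over all tested genes the median was -0.02. Several receptor genes had few counts, for example Drd1 with 79 and Htr7 with 107 over 12 libraries, so the receptor median is uncertain. None of 5 guanylyl cyclase genes, the enzymes that make cGMP, was called.

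In the other simple contrasts and the interaction edgeR without the block called none of these list genes. With the block it called Pde10a for VIP in ACREB (log2 1.32, adjusted p = 0.00694, edgeR). With the block, the VIP contrast in control virus also called Gng4 (log2 2.03, a Gγ subunit gene, 0.435 CPM with PBS and 1.85 with VIP), Rapgef4 (0.61, a cAMP-activated exchange factor gene) and Pde4b (0.50, a phosphodiesterase gene), with adjusted p of 0.0391, 0.0463 and 0.0453. Averaged over treatments, ACREB gave no calls in these lists without the block. With it, 2 of 16 tested effector genes and 1 of 24 partner and regulator genes were called, all higher, against 3.45% of all genes. Among them were Creb1 (log2 0.85, adjusted p = 0.0308) and Akap13 (0.37, adjusted p = 0.0422, edgeR). VIP averaged over viruses called 1 effector and 2 removal genes without the block, and 1 and 4 with it, besides Gng4. Pde10a went from 29.9 ± 6.61 to 134 ± 22.7 CPM with VIP in control virus and from 32.4 ± 3.67 to 81.0 ± 12.3 in ACREB (SD, n = 3). The difference between these 2 responses was not called (interaction -0.84, SE 0.26, adjusted p = 1, edgeR). Among the cyclase genes, group means were farthest apart in Adcy1, with 102 ± 30.2 CPM in ACREB with PBS and 76.8 ± 12.9 in control virus with VIP (SD, n = 3), and these ranges overlapped.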

How the data were processed

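The file the authors deposited holds unnormalized read counts for Ensembl genes, with a column for each library. It was made, per the submitters' processing notes, with HTSeq 0.11.2, STAR 2.7.1a, Trimmomatic 0.39, edgeR and R 3.6.1, on GRCm38 (mm10). Per the labels' protocols the libraries were strand-specific. The counter's strand setting is not given in the sources used here, nor is the annotation release.

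The analysis used R 4.3.3, edgeR 4.0.16 (filterByExpr, TMM, 1 quasi-likelihood fit of group means over 12 libraries, residual degrees of freedom 8) and DESeq2 1.42.0. P-values of the main edgeR fit were adjusted over all 16761 genes tested. Those of each other setting were adjusted over the genes tested there, for example 17087 with DESeq2 for VIP in control virus and 30838 with no filter. CPM are scaled by TMM. The SE is the absolute log2 change over the square root of F. Positions and exon lengths come from GENCODE release 21 for mouse (GRCm38), where 55480 identifiers had a symbol. The fit was tested on simulated counts.

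The named genes were all 8 members, up to 4 called genes per pathway list, 4 checks of the VIP response (Nr4a2, Crem, Pde4d and Ppp1r3c) and the 2 genes most alike, of which 1 is not reported here. The members and lists were chosen with earlier results of these data known. Genes named from the blocked fit, and single genes quoted for their level, were chosen after their values were seen. No 2 libraries of a group agreed within sampling noise.

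Whether the replicate numbers pair the libraries was checked on edgeR's log2 CPM. In 18 of 18 pairs, libraries of 1 number departed from their group means together (r across genes 0.132 to 0.679), and 12 of 12 libraries correlated best with their own number. On log2(CPM + 2) the lowest r was 0.0864 and 17 of 18 pairs passed 0.1. The numbers were taken to pair the libraries on this hint from the data. Alternatives were the replicate block, GC and length offsets (natural splines, 5 degrees of freedom) with and without it, DESeq2, RLE scaling, no filter, only 6 libraries, and each library left out.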

Additional observations from a re-analysis of the deposited data

How the results depend on the processing

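The count of adenylyl cyclase genes called stayed at 0 in all 7 contrasts under DESeq2, RLE scaling, no filter, GC and length offsets, the replicate block and each library left out, and in the 4 simple contrasts with only their 6 libraries. GC and length offsets with the replicate block gave 1 call for VIP averaged over viruses (Adcy1) and 1 for ACREB averaged over treatments (Adcy7). Of 368 log2 changes of the 8 genes under 7 other settings, 353 kept their direction, the 2 calls among them, and 15 uncalled ones of at most 0.07 changed sign. With each library left out, 618 of 672 kept it, 54 uncalled ones changed sign, and the lowest adjusted p was 0.395 (edgeR). The test of the replicate number called 3 genes, 5 with GC and length offsets, and 2 to 5 with each library left out. The order by level per length was the same with coding transcript lengths and without each library.

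Counts over all genes moved more. For VIP in control virus edgeR called 82 genes, 274 with the replicate block, 245 with DESeq2, 131 with no filter, 150 with offsets, 571 with offsets and the block, and 2 with only 6 libraries. For VIP in ACREB these counts were 2, 13, 27, 13, 5, 40 and 1. For ACREB with PBS they were 6, 37, 94, 15, 29, 307 and 0, and for ACREB with VIP 9, 61, 122, 18, 49, 586 and 12. For VIP averaged they were 122, 377, 296, 169, 229 and 711, and for ACREB averaged 113, 578, 423, 132, 344 and 1645. The test of the replicate number called 2596 genes, 3834 with no filter, 4756 with offsets and 3833 with DESeq2. With 1 library left out, VIP in control virus gave 25 (without library 1 of control virus with VIP) to 91 calls (without library 2 of control virus with PBS), VIP in ACREB 1 to 5, ACREB with PBS 0 to 3 and ACREB with VIP 0 to 41. VIP averaged gave 56 (without library 1 of ACREB with PBS) to 166 and ACREB averaged 38 (without library 2 of ACREB with VIP) to 189; the highest of ACREB with VIP and of both averages came without library 2 of control virus with PBS. The number gave 1000 (without library 2 of ACREB with PBS) to 5433 (without library 2 of control virus with VIP). The causes were not tested. Adcy9 and Adcy5 had the fewest counts, 144 to 343 per library, but for VIP in control virus the SE was 0.18 for Adcy9, 0.26 for Adcy1 and 0.28 for Adcy7.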
